A study of Mus musculus with 58 samples.

Results

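The Hsp70 and Hsp110 chaperones were followed here as 8 genes, Hspa1a, Hspa1b, Hspa8, Hspa5, Hspa9, Hsph1, Hspa4 and Hspa4l, out of 20018 genes that a probe of the array could be assigned to by symbol. They were picked by name as a gene family, after earlier results of these data had shown several of them to be lower in treated lung, and Hspa8 in treated forestomach. The array carried 12 probes for 7 of the genes, out of 55681 gene probes in all, and no probe was assigned to Hspa1b. The 12 probes were 1 for Hspa1a (A_55_P2068459), 3 for Hspa8 (A_55_P2080603, A_52_P12877 and A_55_P2069721), 2 for Hsph1 (A_55_P2176963 and A_55_P2003513), 3 for Hspa4 (A_51_P200477, A_55_P2061025 and A_55_P2054157) and 1 each for Hspa4l (A_55_P2173737), Hspa5 (A_55_P2076772) and Hspa9 (A_51_P265869). All 12 passed the signal filter in all 3 tissues.

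The samples came from adult male Muta™Mouse, a transgenic line that carries a bacterial lacZ reporter for scoring mutations, at about 10 weeks of age. They were gavaged each day for 28 days with olive oil alone (D0, 0 mg/kg-bw/day) or with benz(a)anthracene, a hydrocarbon of fused aromatic rings, dissolved in it. The daily dose was 20 mg/kg-bw in D1, 40 in D2 and 80 in D3, and after a further 72 h without dosing the lung, the liver and the forestomach were collected. The 58 arrays covered 20 mice in 12 groups, with 5 mice in each group except 4 in D3 liver (no array of mouse 20) and 4 in D0 forestomach (no array of mouse 5). Mice 1 to 5 were D0, 6 to 10 D1, 11 to 15 D2 and 16 to 20 D3. Each array set the RNA of 1 tissue of 1 mouse, in Cy5, against a commercial reference RNA pooled from 11 mouse cell lines, in Cy3, and the values below are log2 ratios of tissue to reference. A value of 1 is therefore a level 2-fold above the reference for that probe, and levels of different probes cannot be ranked against each other.

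Hsp70 proteins bind exposed hydrophobic stretches of unfolded polypeptides in a cycle of ATP binding and hydrolysis. J-domain co-chaperones start that cycle, and nucleotide exchange factors, among them the Hsp110 proteins, reset it. Hspa1a and Hspa1b encode the stress-inducible cytosolic Hsp70, which heat shock factor 1 switches on from heat shock elements in the promoter, and Hspa8 encodes the constitutive cytosolic Hsc70. Hspa5 encodes BiP, the Hsp70 of the endoplasmic reticulum and a marker of the unfolded protein response, and Hspa9 encodes mortalin, the Hsp70 of the mitochondrial matrix. Hsph1, Hspa4 and Hspa4l encode the Hsp110 proteins, of which Hsph1 is also heat-inducible.

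The promoters of the heat-inducible members and of Hspa5 are printed because these are the members whose regulation by stress is best known. They are the 250 bases before the transcription start in the RefSeq annotation of GRCm38.p6, written 5′ to 3′ on the gene's strand. The table held entries for 6 of the 8 members, and the entry for a second start of Hsph1 was not printed. Capitals mark matches to a 2-unit heat shock element (GAANNTTC or TTCNNGAA) in Hspa1a, Hspa1b and Hsph1, and to the ER stress element (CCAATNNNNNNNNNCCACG or its reverse complement) in Hspa5.
Hspa1a promoter, chr17:34972157-34972406, minus strand: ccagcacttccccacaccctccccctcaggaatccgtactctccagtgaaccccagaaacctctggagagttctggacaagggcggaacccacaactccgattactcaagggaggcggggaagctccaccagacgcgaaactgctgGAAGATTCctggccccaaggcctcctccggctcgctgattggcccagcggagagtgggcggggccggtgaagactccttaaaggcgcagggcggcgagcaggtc
Hspa1b promoter, chr17:34959239-34959488, minus strand: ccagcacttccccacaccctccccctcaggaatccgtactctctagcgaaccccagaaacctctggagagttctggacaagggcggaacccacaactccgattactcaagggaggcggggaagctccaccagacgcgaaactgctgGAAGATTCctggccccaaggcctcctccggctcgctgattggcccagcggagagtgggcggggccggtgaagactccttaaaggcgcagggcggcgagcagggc
Hsph1 promoter, chr5:149636337-149636586, minus strand: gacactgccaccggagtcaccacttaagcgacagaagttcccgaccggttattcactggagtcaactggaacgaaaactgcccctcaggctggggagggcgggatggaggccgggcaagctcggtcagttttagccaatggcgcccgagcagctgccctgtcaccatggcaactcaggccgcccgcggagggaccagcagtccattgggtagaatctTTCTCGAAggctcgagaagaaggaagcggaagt
Hspa5 promoter, chr2:34771840-34772089, plus strand: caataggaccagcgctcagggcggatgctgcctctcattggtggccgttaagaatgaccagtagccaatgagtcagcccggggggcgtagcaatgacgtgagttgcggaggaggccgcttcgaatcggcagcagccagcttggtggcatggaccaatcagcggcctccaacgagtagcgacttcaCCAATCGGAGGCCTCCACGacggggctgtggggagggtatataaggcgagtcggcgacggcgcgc

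The match in Hspa1a and in Hspa1b was GAAGATTC, 104 to 97 bases before the start, and the 2 promoters were identical at 247 of 250 positions (98.8%). Hsph1 held TTCTCGAA 33 to 26 bases before the printed start. Hspa5 held CCAATCGGAGGCCTCCACG 65 to 47 bases before the start. Searched on both strands, 12.8% of 32851 RefSeq promoters of the same length held the 2-unit heat shock element, 0.466% a 3-unit element (GAANNTTCNNGAA or TTCNNGAANNTTC, which contains the 2-unit one) and 0.113% the ER stress element. No printed member promoter held the 3-unit element, and those of Hspa4 and Hspa4l held none of these letters. A match is a description of the sequence only. The array files gave no probe sequences, so whether the Hspa1a probe also measured Hspa1b, whose promoter is nearly the same, was not tested.

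Several arrays carried markers of tissue other than the labelled one. The defining markers of each labelled tissue were high on all its arrays: 5 lung genes averaged 5.61 to 6.02 in lung, 5 liver genes 7.16 to 7.90 in liver and 6 squamous epithelium genes 2.94 to 4.19 in forestomach. In forestomach, 8 of 8 glandular stomach genes were found on the array and their mean ranged from 0.86 to 6.38, with 4 to 8 of them above background. In lung, mouse 5 (D0) stood out with squamous markers at 2.53 and skeletal muscle markers at 4.71, mouse 16 (D3) with 0.81 and 1.34, and mouse 14 (D2) with adipocyte markers at 4.52. The mean of 5 heart muscle genes varied widely among lungs, from 0.70 to 3.70 at D0 and from -0.02 to 3.38 at D3. Liver markers ran from 0.34 to 3.37 on the forestomach arrays, with 2 to 5 of the 5 genes above background. Between 34.1% and 69.2% of spots per array were well above background in Cy5, with the lowest shares in lung and forestomach on 1 of the 3 slides of each (44.4% to 49.6% and 38.4% to 42.1%). In bulk tissue, fewer cells of a type and less RNA per cell cannot be told apart.

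Hspa1a was the member that differed most with dose. In lung, the D0 mice stood at 3.66, 2.64, 2.91, 2.07 and 1.46. The D1 mice stood at 1.67, 1.00, 0.55, 1.46 and 0.05, the D2 mice at -0.23, 0.17, -0.16, 0.06 and -0.42, and the D3 mice at -0.34, -0.34, -0.50, -0.42 and -0.53. All D2 and all D3 lungs lay below all D0 lungs, whereas the highest D1 lung, at 1.67, lay above the lowest D0 lung, that of mouse 5. The spread closed with the level, from an SD of 0.83 at D0 (n = 5) to 0.09 at D3 (n = 5). The differences from D0 were -1.60 at D1, -2.66 at D2 and -2.97 at D3 (SE 0.31 each), or 3.04-fold, 6.33-fold and 7.86-fold lower.

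In liver the same probe started lower and closer together. The D0 livers stood at 1.86, 0.42, 1.82, 0.79 and 1.06 and the D1 livers at 0.24, 1.49, 0.10, 0.43 and -0.02. The D2 livers stood at 0.21, 0.35, -0.33, 0.05 and -0.06 and the D3 livers at -0.24, 0.02, 0.11 and 0.09. Again no D2 or D3 liver reached a D0 liver, and the lowest D0 liver was 0.42. The probe was well above background on 3 of the 5 D2 livers and on every liver of the other groups. Whether a signal near background limited the liver differences was not tested. The differences were -0.74 (SE 0.27), -1.14 (SE 0.27) and -1.19 (SE 0.29).

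In forestomach Hspa1a was higher in every group and the groups overlapped. The D0 forestomachs stood at 4.58, 2.85, 5.10 and 4.25, with the low value in mouse 2. The D1 values were 3.90, 2.56, 3.29, 3.71 and 2.39, the D2 values 3.35, 3.83, 3.38, 2.13 and 2.06, and the D3 values 3.44, 3.26, 3.31, 2.27 and 1.72. Every treated group reached above mouse 2 of D0, and the differences of -1.03, -1.25 and -1.40 (SE 0.49 each) were not called. The reference channel of this probe differed by -0.53 at D3 in forestomach (limma adjusted p = 0.0906), and the Cy5 signal alone gave a difference of -1.73.

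**Figure D1:**
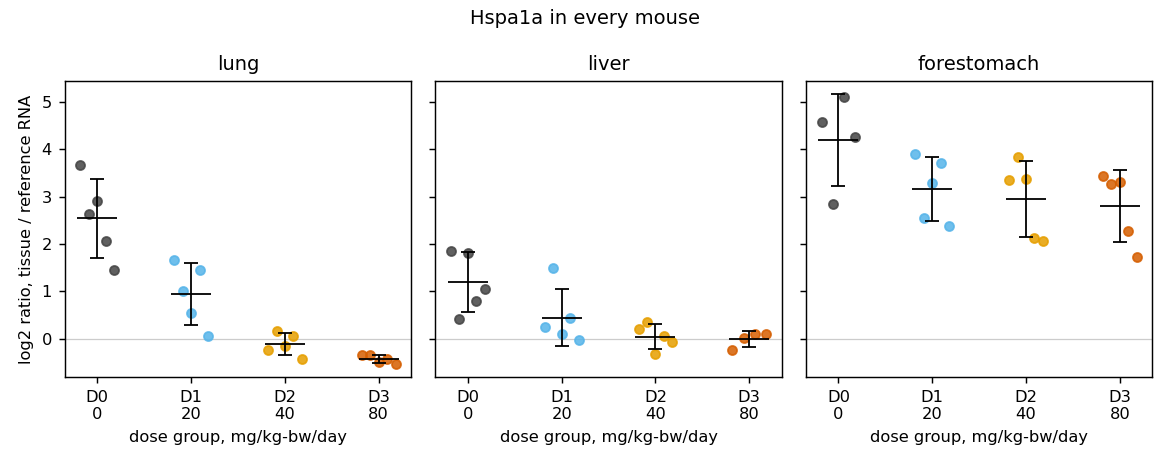
Hspa1a log2 ratio (y axis, tissue over reference RNA) in every mouse by dose group (x axis, mg/kg-bw/day) in lung, liver and forestomach, with bars at the group mean ± SD. Lung D3 values sit between -0.53 and -0.34 and D0 values between 1.46 and 3.66, and forestomach groups overlap.

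Counted over the family, lung held most of the called probes. A probe was called at a Benjamini-Hochberg adjusted limma p of at most 0.05 with a fold change of at least 1.5. In lung, 0 of the 12 probes were called at D1, 4 at D2 and 6 at D3, all lower, where 0.00329%, 0.079% and 0.592% of all 30383 probes tested were called lower. In liver 0 were called at each dose (0.237%, 0.465% and 0.316% of 22789 probes), and in forestomach 0, 0 and 2, both lower (0.0%, 0.00309% and 0.0155% of 32318 probes). None was called higher, where 0.0%, 0.411% and 1.16% of all probes were in lung, 0.00439%, 0.0263% and 0.0834% in liver and 0.0%, 0.00619% and 0.00928% in forestomach. In either direction, the shares of all probes called were 0.00329%, 0.49% and 1.75% in lung, 0.241%, 0.491% and 0.399% in liver and 0.0%, 0.00928% and 0.0248% in forestomach. At D1 in forestomach, where limma called 0 of all probes, 1570 of 32318 had an unadjusted p under 0.05. That is close to the share such a threshold gives by chance. Since the family was picked with lung results in view, nothing is read from these shares about the family.

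The count of probes whose treated mice all lay below all D0 mice followed the same tissues. It was 2, 4 and 6 of 12 at D1, D2 and D3 in lung (0.533%, 1.5% and 2.73% of all probes), 0, 1 and 1 in liver (0.785%, 1.36% and 2.55%) and 0, 3 and 4 in forestomach (1.23%, 0.659% and 1.11%). No member probe lay wholly above D0 in any group, where 0.566%, 3.12% and 4.61% of all probes did in lung, 0.553%, 1.49% and 3.03% in liver and 0.467%, 0.572% and 0.835% in forestomach. The median difference over the 12 probes was -0.44, -0.48 and -0.62 in lung, -0.20, -0.12 and 0.02 in liver and -0.36, -0.58 and -0.77 in forestomach, beside all-probe medians between -0.03 and 0.01.

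All lung calls of members were lost under median centring. With median centring in place of the authors' LOWESS, 0 members and 0 of all probes were called at D2 or D3 in lung, although the D3 difference of Hspa1a was still -2.45. The D2 differences of the Hspa8 probes A_55_P2080603, A_52_P12877 and A_55_P2069721 shrank there to -0.26, -0.37 and -0.19, from -0.77, -1.01 and -0.76. Median centring moved the median of all lung probes by 0.37 at D2 and 0.15 at D3. The Cy5 signal alone, quantile normalised and also without loess, called 130 and 428 of all lung probes at D2 and D3. It gave a D3 difference of -2.85 for Hspa1a. Leaving out the lung arrays of mice 5, 14 and 16 left 4 members called at D2 and 6 at D3, with Hspa1a at -3.27. Heart muscle markers were not used in choosing those arrays.

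**Figure D2:**
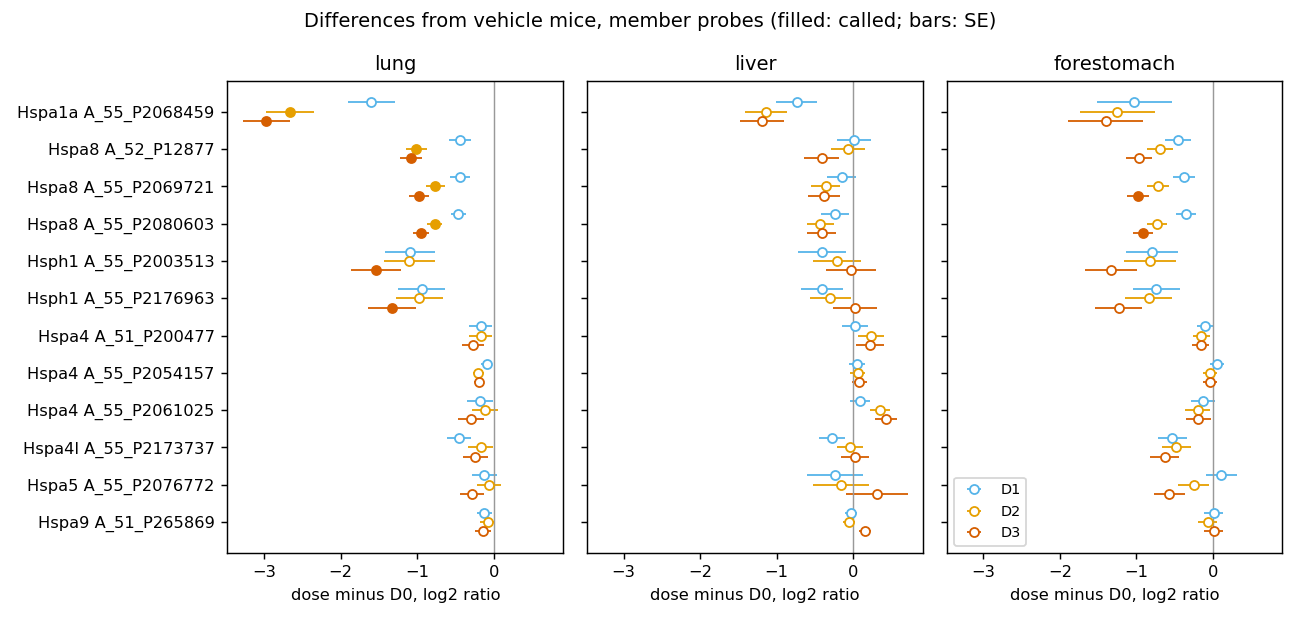
Difference from D0 (x axis, log2) of each of the 12 probes (y axis) at D1, D2 and D3 in lung, liver and forestomach, with bars of 1 SE and filled points for called differences. The called points are Hspa1a, Hspa8 and Hsph1 in lung and 2 Hspa8 probes in forestomach.

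Hspa8, the constitutive cytosolic Hsc70, differed less than Hspa1a but more evenly, and in lung and forestomach alike. On probe A_55_P2080603 the D0 lungs stood at 1.15, 0.78, 1.12, 0.86 and 1.02 and the D3 lungs at -0.07, 0.12, 0.10, -0.04 and 0.09. On probe A_55_P2069721 the D0 lungs stood at 0.89, 0.52, 0.92, 0.35 and 0.53 and the D3 lungs at -0.36, -0.18, -0.38, -0.34 and -0.45. The groups were far apart on both, and also on A_52_P12877, where D0 ran from -0.68 to 0.02 and D3 from -1.50 to -1.17. The D3 differences of the 3 probes were -0.95 (SE 0.10), -0.98 (SE 0.13) and -1.08 (SE 0.14), those at D2 were -0.77, -0.76 and -1.01, and all 6 were called. At D1 the lungs stood between, with differences of -0.46, -0.44 and -0.44 that were not called.

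In forestomach the Hspa8 differences at D3 were as large as in lung. On A_55_P2080603 the D0 forestomachs stood at 0.39, 0.36, 0.90 and 0.15 and the D3 forestomachs at -0.33, -0.64, -0.56, -0.40 and -0.36. On A_55_P2069721 the D0 values were 0.10, -0.08, 0.62 and -0.14 and the D3 values -0.68, -1.15, -0.90, -0.81 and -0.76. Neither pair of groups overlapped at D2 or D3. The D3 differences were -0.91 (SE 0.13) and -0.98 (SE 0.14), both called, and -0.96 (SE 0.17) on A_52_P12877, which did not overlap and was not called. In liver the 3 probes differed by -0.41, -0.38 and -0.41 at D3 (SE 0.19 to 0.23), and D3 livers overlapped D0 livers on each.

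One Hspa8 probe also moved in the reference channel, which holds the same RNA on each array. The Cy3 signal of A_55_P2080603 was higher than at D0 by 0.41 at D2 and 0.50 at D3 in lung (limma adjusted p = 0.104 and 0.00385). At D3 in forestomach it was 0.35 higher (SE 0.18, limma adjusted p = 0.9997). Cy3 of the other Hspa8 probes differed by 0.04 and 0.14 in lung at D3, and over all 108 dose differences of the family it ran from -0.53 to 0.50. In Cy5 alone the D3 lung difference of A_55_P2080603 was -0.48, against -0.98 and -0.80 for A_52_P12877 and A_55_P2069721.

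Hsph1, the heat-inducible Hsp110, was called lower in lung at D3, with differences of like size in forestomach that were not called. On probe A_55_P2003513 the D0 lungs stood at 1.57, 0.92, 1.79, 1.44 and 1.08 and the D3 lungs at 0.25, 0.55, -0.15, -0.97 and -0.57. The D3 lungs all lay below the D0 lungs but were widely spread (SD 0.61, n = 5), unlike those of Hspa1a. The D3 lung differences were -1.54 (SE 0.33) on this probe and -1.33 (SE 0.31) on A_55_P2176963, both called, and at D2 they were -1.10 and -0.97, not called.

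In forestomach the D0 values of A_55_P2003513 were 1.43, 0.35, 1.86 and 0.96 and the D3 values 0.06, 0.16, 0.38, -0.72 and -0.77. A single D3 mouse reached the D0 range, again at the level of D0 mouse 2. The D3 differences were -1.33 (SE 0.34) and, on A_55_P2176963, -1.23 (SE 0.31), the latter with no overlap, and neither was called. In liver the D0 values of A_55_P2003513 were 0.63, -0.53, 0.73, 0.07 and 0.48 and the D3 values -0.01, 0.52, 0.64 and -0.18. The liver differences were -0.03 (SE 0.33) and 0.02 (SE 0.29).

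**Figure D3:**
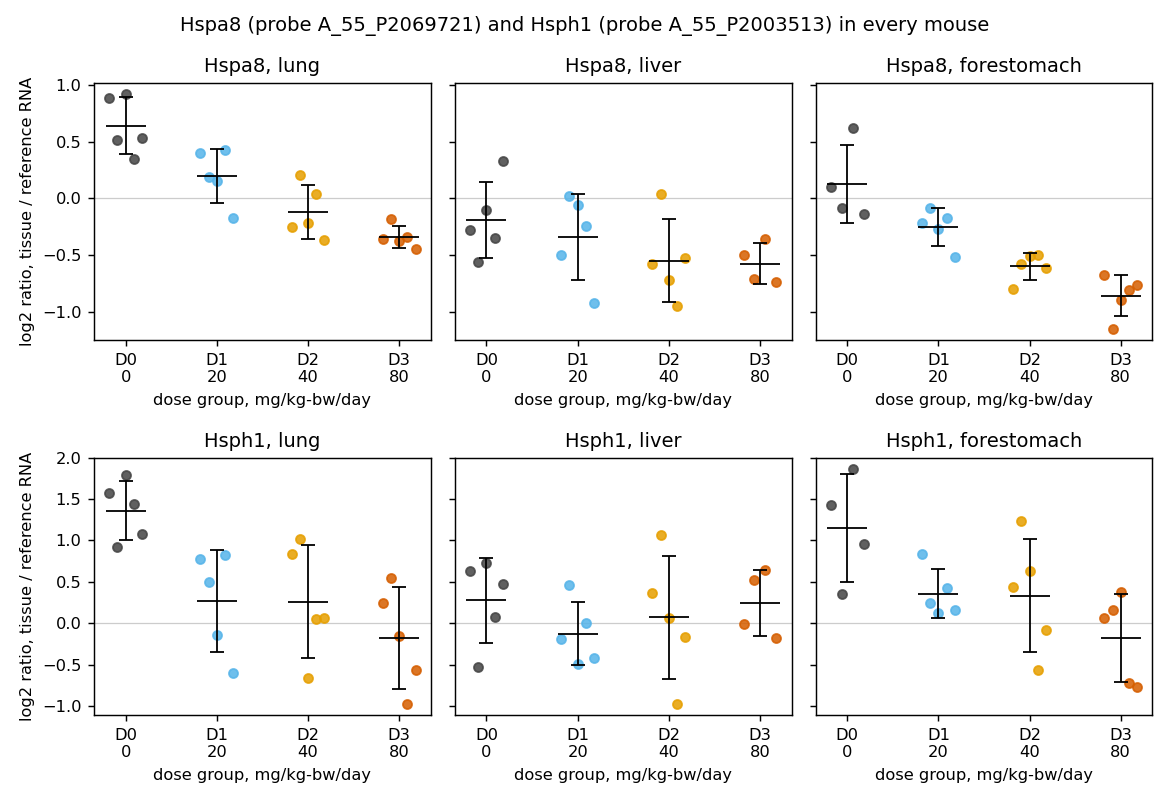
Log2 ratio (y axis, tissue over reference RNA) of 1 Hspa8 probe (top) and 1 Hsph1 probe (bottom) in every mouse by dose group (x axis, mg/kg-bw/day), with bars at the group mean ± SD. Hspa8 at D3 lies below D0 in lung (-0.45 to -0.18 against 0.35 to 0.92) and forestomach, and Hsph1 in liver does not separate by dose.

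The other Hsp110 genes were not called at any dose. For Hspa4, the widely expressed Hsp110, the 3 probes differed from D0 by -0.29 to -0.19 in lung and by -0.19 to -0.04 in forestomach at D3. In liver they differed by 0.08 to 0.43 at D3, the most on A_55_P2061025, whose D0 livers stood at 0.04, 0.09, 0.42, 0.14 and 0.79 and D3 livers at 1.07, 0.67, 0.67 and 0.48. D0 mouse 5, at 0.79, lay within the D3 range (difference 0.43, SE 0.14). Hspa4l, an Hsp110 known for its role in the testis, differed by -0.24 (SE 0.16) in lung, 0.02 (SE 0.18) in liver and -0.63 (SE 0.19) in forestomach at D3. The D0 forestomachs of Hspa4l stood at 0.22, -0.33, 0.54 and 0.05 and the D3 forestomachs at -0.55, -0.31, -0.47, -0.62 and -0.59, with mouse 2 once more the D0 value that overlapped.

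The organelle Hsp70 genes were not called at any dose either. Hspa5, the BiP gene, ranged in liver from 0.02 to 1.79 at D0 and from 0.03 to 2.00 at D3, a spread (SD 0.73 and 0.89) wider than its difference of 0.31 (SE 0.40). In forestomach its D0 values were -0.33, 0.17, 0.50 and -0.13 and its D3 values -0.67, -0.56, -0.67, -0.35 and -0.32, a difference of -0.57 (SE 0.20) with overlap at D0 mouse 1. In lung it differed by -0.28 (SE 0.16) at D3. Hspa9, the mitochondrial Hsp70, lay within 0.15 of D0 in every treated group of all 3 tissues, with SE of 0.08 to 0.12.

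The size of the D3 difference varied between tissues for some members. For Hspa1a the D3 difference in lung minus that in liver was -1.78 (SE 0.55), and lung minus forestomach was -1.58 (SE 0.55). For the 2 Hsph1 probes lung minus liver was -1.51 (SE 0.50) and -1.36 (SE 0.45), and lung minus forestomach was -0.21 (SE 0.50) and -0.10 (SE 0.45). For the 3 Hspa8 probes, lung minus liver was -0.67 to -0.54 (SE 0.21 to 0.27) and lung minus forestomach -0.12 to 0.00 (SE 0.21 to 0.27). These values hold the dose contrasts the family was picked with, so they are given without a test.

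Slides held 6 or 7 arrays of 1 tissue from all 4 dose groups, so D3 could be set against D0 within each. For Hspa1a the 3 within-slide differences were -3.49, -3.33 and -2.28 in lung, -1.20, -1.84 and -0.98 in liver and -1.23, -1.36 and -0.86 in forestomach. For Hsph1 A_55_P2003513 they were -0.84, -2.76 and -1.62 in lung, each from 1 or 2 mice a dose. For Hspa8 A_55_P2069721 they were -0.98, -1.27 and -0.85 in lung and -1.01, -1.14 and -0.71 in forestomach. All of these kept the sign of the pooled difference. With slide as a block, Hspa1a in liver passed both thresholds at D2 and D3, with a D3 difference of -1.26.

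Levels in vehicle mice were also set side by side between tissues. The same D0 arrays are the baseline of the dose differences known when the family was picked, so these values are descriptions with no test. Hspa1a was highest in forestomach (mean 4.20, SD 0.96, n = 4), then lung (2.55, SD 0.83, n = 5), then liver (1.19, SD 0.63, n = 5). Lung minus liver was 1.36 (SE 0.38) and lung minus forestomach -1.65 (SE 0.40). Both neighbouring pairs shared values, whereas every D0 forestomach lay above every D0 liver, with liver minus forestomach at -3.01 (SE 0.40). The Cy5 signal alone gave the same order, with differences of 0.97, -2.06 and -3.03.

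The remaining members had other orders. Hspa9 was highest in liver, where D0 mice stood at -0.40, -0.05, -0.26, -0.20 and -0.19, against -1.68 to -1.12 in lung and -1.28 to -0.65 in forestomach. Lung minus liver was -1.25 (SE 0.10) and liver minus forestomach 0.83 (SE 0.11), both without overlap. Hspa4l was highest in lung, with D0 values from 0.97 to 1.75, and exceeded liver by 1.54 (SE 0.18) and forestomach by 1.23 (SE 0.19), also without overlap. Its liver and forestomach levels overlapped (difference -0.31, SE 0.19).

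Hsph1 was lower in liver than in lung on both probes, by 1.16 and 1.08, and lung minus forestomach was 0.36 and 0.21 (SE 0.33 and 0.36) with overlap. Hspa8 was higher in lung than in liver by 0.83 on A_55_P2069721, with no overlap, and by 0.66 and 0.55 on the other probes. Hspa5 was higher in liver than in forestomach by 0.98 (SE 0.29). Hspa4 A_55_P2054157 gave lung minus forestomach at -0.69, called and with no overlap. The other 2 Hspa4 probes gave -0.25, with overlap, and -0.43, without overlap on A_55_P2061025, and neither was called. In all, 7, 3 and 6 of the 12 probes were called for lung against liver, lung against forestomach and liver against forestomach, where 51.5%, 31.7% and 45.1% of all probes were. Nothing is read from these shares about the family. Counted by overlap, 1 probe lay wholly lower and 4 wholly higher in lung than in liver (32.4% and 29.9% of all probes), 2 lower and 1 higher in lung than in forestomach (21.7% and 21.4%), and 2 lower and 1 higher in liver than in forestomach (26.1% and 29.3%). A fit that kept the mouse as a replicate block gave equal counts of calls.

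Several of these tissue differences changed when median centring took the place of loess. With median centring, liver minus forestomach and lung minus forestomach were lower for all 12 probes. Liver minus forestomach became 0.19 for Hspa9 and 0.07 for Hspa5, and lung minus forestomach became 0.49 for Hspa4l. Lung minus forestomach of Hsph1, Hspa8 and Hspa5, where no probe was called, turned negative on all 6 probes. For Hspa1a the 3 differences became 1.67, -1.93 and -3.60, which keeps the order of the tissues. The Cy5 signal alone, also without loess, gave liver minus forestomach at 1.08 for Hspa9 and 0.61 for Hspa5. It gave lung minus forestomach at 1.40 for Hspa4l and at 0.30 to 0.67 on the 6 probes of Hsph1, Hspa8 and Hspa5. On Hspa8 A_52_P12877, however, it turned liver minus forestomach from -0.60 to 0.20.

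Each mouse gave up to 3 tissues, so its place within its dose group could be compared across them. After removing the dose group means, no member reached an adjusted permutation p of 0.05 in any pair of tissues, where 0.0%, 0.0212% and 0.0273% of all probes did in lung and liver, lung and forestomach, and liver and forestomach. Over 100000 permutations of mice within dose groups, the strongest relations were those of Hspa4l and Hsph1 between liver and forestomach (n = 18). Hspa4l gave r = 0.86 and rho = 0.86 (permutation p = 5e-05 and 6e-05, adjusted p = 0.0703 over 21960 probes), r = 0.77 without the 2 mice farthest from the median, and r = 0.75 with slide removed. Hsph1 gave r = 0.85 and rho = 0.81 on A_55_P2003513 (permutation p = 0.00041 and 0.00066, adjusted p = 0.130) and r = 0.87 and rho = 0.76 on A_55_P2176963 (permutation p = 0.00034 and 0.00144, adjusted p = 0.122). Without the 2 farthest mice these were 0.74 and 0.78, and with slide removed 0.85 and 0.81. The forestomach arrays fell into 9 poor and 10 rich in glandular stomach markers by the list given above, and within these sets r was 0.89 and 0.75 for Hspa4l, 0.84 and 0.38 for Hsph1 A_55_P2003513 and 0.85 and 0.56 for A_55_P2176963, over 9 mice each and given as a description.

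Hspa1a followed the mouse less closely. Its r was 0.44 for lung and liver (rho = 0.42, permutation p = 0.201 and 0.151, adjusted p = 0.792, n = 19), 0.45 for lung and forestomach (rho = 0.57, permutation p = 0.0881 and 0.0240, adjusted p = 0.748, n = 19) and 0.29 for liver and forestomach (rho = 0.36, permutation p = 0.374 and 0.219, adjusted p = 0.946, n = 18). Without mice 1 and 3, both at D0, these fell to 0.07, 0.37 and -0.02. Those mice lay farthest from the median in the first tissue of each pair, before dose group means were removed. Such a choice favours D0 mice, where Hspa1a was highest, so what the relation rested on was not tested. With slide removed they were 0.35, 0.15 and 0.33. Within the poor and rich forestomach sets, r was 0.47 and 0.77 with lung and 0.66 and -0.29 with liver. In lung and forestomach, 15 of 19 mice lay on slides of the same number, against 3 of 19 and 3 of 18 in the pairs with liver. For Hsph1 the lung and forestomach values of r, 0.60 and 0.70, became 0.26 and 0.42 with slide removed.

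**Figure D4:**
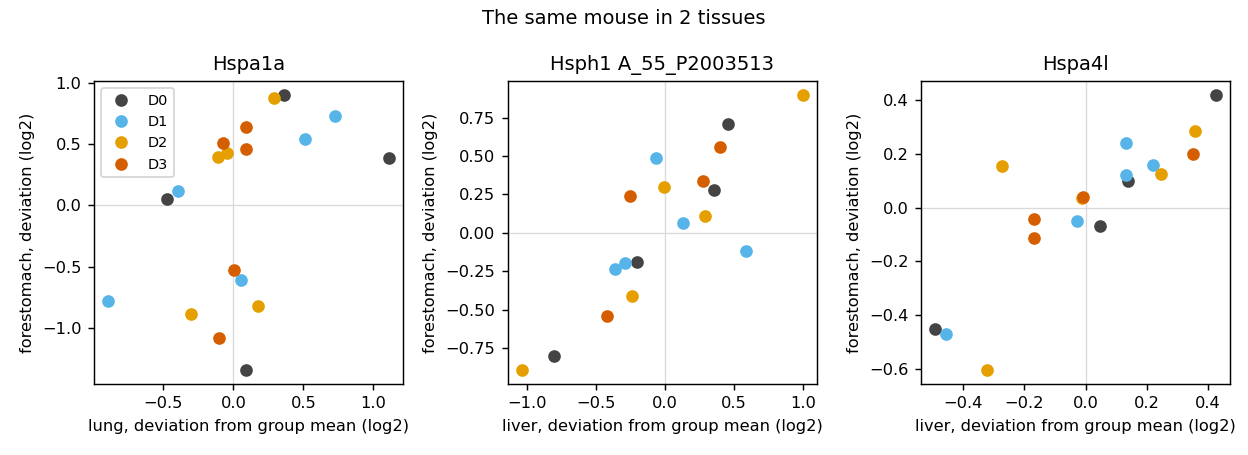
Deviation of each mouse from its dose group's mean (log2) in 1 tissue (x axis) against another (y axis) for Hspa1a in lung and forestomach, Hsph1 in liver and forestomach and Hspa4l in liver and forestomach, coloured by dose group. Points for Hsph1 and Hspa4l lie near a rising line (r = 0.85 and 0.86), and those for Hspa1a are scattered (r = 0.45).

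Within a tissue, the members were set against Hspa1a, again after removing dose group means. In lung and liver no member reached an adjusted permutation p of 0.05 (0.142% and 0.124% of other probes did). The highest were Hspa8 A_55_P2069721 in lung at r = 0.79 (rho = 0.85, permutation p = 0.00034 and 0.00016, adjusted p = 0.0758, n = 20) and Hsph1 A_55_P2003513 in liver at r = 0.66 (rho = 0.72, permutation p = 0.00086 and 0.00113, adjusted p = 0.109, n = 19). Without the 2 mice farthest in Hspa1a these were 0.72 and 0.60, and with slide removed 0.65 and 0.46.

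Glandular stomach markers split the forestomach arrays into 2 sets. The mean of the 8 glandular genes was 1.04, 5.97, 1.21 and 0.86 in D0 mice 1 to 4, 5.13 to 6.34 in all D1 mice, 2.13, 1.22, 1.42, 6.38 and 6.01 at D2 and 1.97, 3.27, 1.34, 5.80 and 6.11 at D3. The 9 poor arrays (0.86 to 3.27) were 3 of D0, 3 of D2 and 3 of D3, and the 10 rich arrays (5.13 to 6.38) were D0 mouse 2, all 5 of D1, 2 of D2 and 2 of D3. Since the arrays lie in separate sets, which were drawn after seeing the data, no correlation over all 19 is given, and the values within sets are descriptions with no test.

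The sets were also nearly parted by slide. All 6 arrays of slide 3, the slide with the lowest share of spots above background, were rich, all 9 poor arrays lay on slides 1 and 2, and the other 4 rich arrays were D1 mice 6, 8 and 9 and D2 mouse 14. Among the D1 mice, all of them rich, Hspa1a stood at 2.56 and 2.39 on slide 3 and at 3.90, 3.29 and 3.71 on slides 1 and 2, whereas mouse 14 on slide 2 stood at 2.13. D0 mouse 2, which lay on slide 3, stood at 2.85. The part of slide and of glandular RNA in the values below was not tested.

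Hspa1a and Hsph1 averaged less on rich arrays than on poor arrays in each of the dose groups D0, D2 and D3, which held both. Hspa1a averaged 4.64 on the 3 poor D0 arrays (4.25 to 5.10) against 2.85 on the rich one, and 3.34 on the 3 poor D3 arrays (3.26 to 3.44) against 2.00 on the 2 rich ones (1.72 to 2.27). Hsph1 A_55_P2003513 averaged 1.42 against 0.35 at D0 and 0.20 against -0.74 at D3. Hspa8 A_55_P2069721 averaged 0.19 against -0.08 at D0 and -0.91 against -0.78 at D3, so its sets lay closer together. Among the poor arrays alone, Hspa1a ran from 4.25 to 5.10 at D0, 3.35 to 3.83 at D2 and 3.26 to 3.44 at D3, with 3 arrays each. How many of all probes part in the same way in so small a set was not counted, so nothing is read from these ranges. Among the rich arrays, the D1 mean of Hspa1a was 3.17 (2.39 to 3.90) beside 2.85 in the single D0 mouse, and Hsph1 A_55_P2003513 averaged 0.36 beside 0.35. That D0 mouse lay on slide 3, where the D1 mice were lower than it in Hspa1a, as given above. Over all forestomachs the D1 differences were -1.03 for Hspa1a and -0.80 for Hsph1 A_55_P2003513, which set rich D1 arrays against a D0 group that was mostly poor.

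Within the sets the glandular mean itself ran with Hspa1a at r = -0.10 in the poor and -0.10 in the rich arrays. With Hsph1 it ran at -0.24 and 0.07 on A_55_P2003513 and at -0.01 and 0.49 on A_55_P2176963. Other members ran more closely with it on the rich arrays, at 0.74 to 0.91 for the 3 Hspa8 probes, 0.85 for Hspa5 and 0.78 for Hspa9. On the poor arrays these were -0.30 to -0.14, -0.0 and 0.60. For Hspa4 r was -0.05 to 0.40 on the poor and 0.09 to 0.85 on the rich arrays, and for Hspa4l 0.25 and 0.31. Hspa1a and Hsph1 still varied together from mouse to mouse on the poor arrays, at r = 0.90 and 0.89 for the 2 Hsph1 probes, and less on the rich arrays, at 0.61 and 0.39. Hspa8 ran with Hspa1a at r = 0.82 to 0.92 over its 3 probes on the poor arrays and at -0.06 to 0.33 on the rich arrays.

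With the glandular mean as a covariate, 2 Hspa8 probes were still called at D3 in forestomach, at -0.94 and -0.98, and Hspa1a differed by -0.93. On the arrays with a glandular mean under 3 (3 at D0 and 2 at D3) Hspa1a differed by -1.27 and the Hspa8 probes by -0.93, -0.97 and -0.98, with 0 called. Adipocyte markers moved as well, at 3.40, 0.36, 3.70 and 4.31 at D0 and 0.12 to 2.40 at D3, with 1 to 4 of the 5 genes above background. With their mean as a covariate, 0 members were called and the differences were -0.72 for Hspa1a and -0.95 to -0.77 for Hspa8. The part of these tissues in the dose differences was not tested further.

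**Figure D5:**
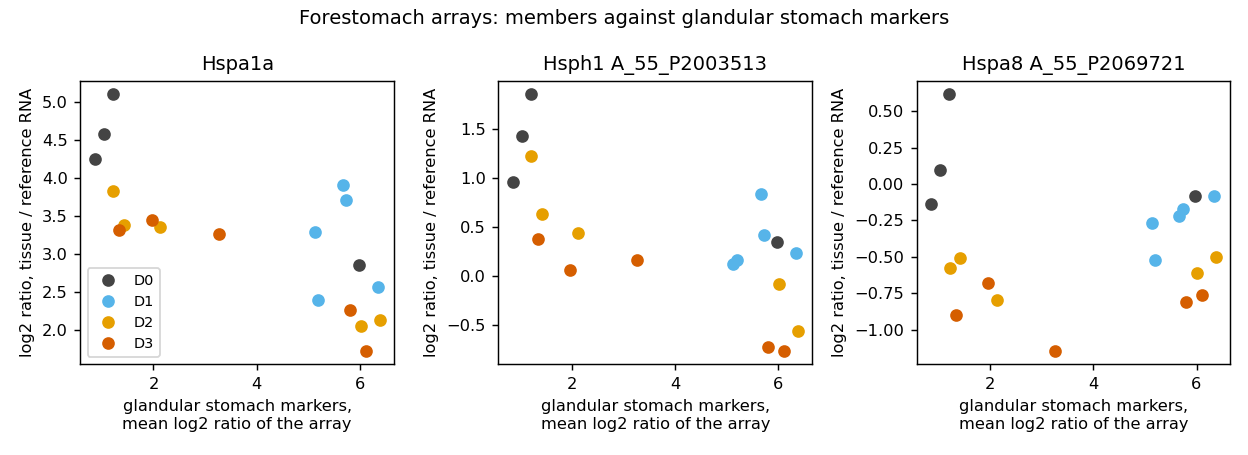
Log2 ratio of Hspa1a, Hspa8 and Hsph1 (y axis) against the mean log2 ratio of 8 glandular stomach genes (x axis) in the 19 forestomach arrays, coloured by dose group. The 9 arrays on the left and 10 on the right form separate sets, and on the right Hspa1a lies at 1.72 to 2.27 at D3 against 3.26 to 3.44 on the left.

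The genes whose pattern was most like that of Hspa1a were sought among 11403 other genes over all 58 arrays after subtracting each tissue's mean. The 5 with the highest Pearson r were Cacybp (0.81), Bag3 (0.81), Dnajb1 (0.80), Mrps6 (0.75) and Dnaja1 (0.73). Bag3 encodes a nucleotide exchange factor of Hsp70, and Dnajb1 and Dnaja1 encode J-domain co-chaperones. The likeness differed by tissue, at 0.99 in lung, 0.60 in liver and 0.32 in forestomach for Dnaja1, but 0.93, 0.82 and 0.76 for Bag3. The 5 with the lowest r were Srrm1 (-0.77), Cirbp (-0.76), Herc3 (-0.75), Rtf1 (-0.74) and Slc9a8 (-0.73), where Cirbp encodes a cold-inducible RNA-binding protein. These correlations pool doses and share arrays, so they are descriptions with no test.

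The rest of the chaperone network was covered by 7 lists of 2 to 18 genes that were drawn up with earlier results known. In lung, 84 of their probes for 65 genes were tested, of which 0 were called at D1, 5 lower and 1 higher at D2, and 7 lower and 1 higher at D3. Of all lung probes, 0.00329%, 0.079% and 0.592% were called lower and 0.0%, 0.411% and 1.16% higher. In liver 0, 1 and 1 were called, all lower (0.237%, 0.465% and 0.316% of all probes). In forestomach 0 of 85 were called at each dose (0.0%, 0.00928% and 0.0248% of all probes in either direction). Since the lists were drawn up with earlier results known, nothing is read from these shares about the lists. The median difference over all listed probes lay between -0.09 and 0.05 in the 9 comparisons. Among the co-factors of the Hsp70 cycle, 3 of 18 genes were lower at D3 in lung, Dnaja1 by -1.76 (SE 0.17), Dnajb1 by -0.83 (SE 0.13) and Bag3 by -0.62 (SE 0.08). For Dnaja1 the second probe gave -0.78 (SE 0.14). In liver, Dnajb1 alone of these lists was called, at -0.68 (SE 0.13) at D2 and -0.94 (SE 0.14) at D3.

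Among 13 other heat shock targets, the Hsp90-associated Chordc1 (-0.99, SE 0.12) and Cacybp (-0.93, SE 0.17) were lower at D3 in lung. Of 17 tested genes of endoplasmic reticulum chaperones and stress, Manf was called in lung, at -0.59 (SE 0.15), while Hyou1, the Hsp110-like chaperone of that compartment, differed by -0.14 (SE 0.11). Cirbp was higher in lung by 0.82 (SE 0.15) at D2 and 1.26 (SE 0.15) at D3 on 1 probe. It was the only call among the 4 tested probes of the 2 cold-inducible genes, Cirbp and Rbm3. Their median difference in lung was -0.05 at D2 and 0.02 at D3. Of the 7 other Hsp70 and Hsp110 genes, 6 were tested in lung, 5 in liver and 7 in forestomach, with 0 calls at any dose. The 4 heat shock factors and the 9 mitochondrial matrix chaperones and proteases, all tested in each tissue, also held 0 calls.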

How the data were processed

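RNA from 58 tissue samples was hybridised to 2-colour Agilent arrays with tissue RNA in Cy5 and reference RNA in Cy3, without dye swaps, and scanned with Feature Extraction 10.7.3.1. The authors deposited LOWESS-normalised log2 ratios, which are the values reported here. The deposited scanner intensity values were used for the filters, the Cy5 and Cy3 checks and the alternatives. The deposited ratios correlated with loess ratios recomputed from the scanner files at r = 0.995 to 0.998. The number of arrays limits the precision. Each p-value rests on variation between arrays, with 1 array per tissue of each mouse, so mouse and array variation cannot be told apart. Those of Cy3 rest on variation of the reference signal between arrays.

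Values were removed where every spot of a probe carried an outlier flag. A probe was tested in a tissue where Cy5 was well above background on at least 4 arrays. Dose groups were compared per tissue, and vehicle tissues over all 58 arrays, with limma 3.58.1 (R 4.3.3), and called at an adjusted p of at most 0.05 and a fold change of at least 1.5, the thresholds of the study. Its own tool, MAANOVA, was not used here. Members and lists were chosen with earlier results of these data known, so their dose differences, and their tissue differences in vehicle mice, carry no p-value. All probes of the members are named, up to 4 called genes of each related list and tissue with the largest D3 difference, and the 5 genes most and least like Hspa1a. Hyou1 was named after its values were seen. The probe with the highest mean Cy5 stood for a gene in that last ranking.

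Correlations used 100000 permutations of mice within dose groups, and p-values were adjusted over all probes. Alternatives were another background correction (normexp with offset 50 on median signals, in place of the planned mean signals), median centring, Agilent's processed signals, Cy5 alone, other filters, slide or mouse as a block and leaving out each mouse. Code for the fits and correlations was tested on simulated data. Promoters came from RefSeq (GRCm38.p6).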

Additional observations from a re-analysis of the deposited data

Results flagged for a closer look

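Of 144 sets of mice (12 probes in 12 groups), 5 held a mouse set apart from the rest of its group by Dixon's criterion, where chance sets apart about 1 in 20 groups. Mouse 7 was high for Hspa9 in D1 forestomach, at -0.69 with the nearest mouse at -1.08, and for Hsph1 A_55_P2176963 in D1 liver, at -0.05 with the nearest at -0.42. Mouse 14 was low for Hspa4l in D2 forestomach, at -0.97 with the nearest at -0.33. Mouse 16 was high for Hspa4 A_51_P200477 in D3 liver, at 0.83 with the nearest at 0.34. Mouse 6 was high for Hspa8 A_52_P12877 in D1 lung, at -0.28 with the nearest at -0.74.

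The D3 difference of Hspa4 A_51_P200477 was -0.16 in forestomach and 0.22 in liver, which are -0.38 apart, with the mice of these tissues on opposite sides of their D0 means. The difference between the tissues was not tested.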

How the results depend on the processing

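Called members kept their sign in all 20 settings run in lung and all 21 in forestomach, but not their size. In lung at D3, Hspa1a lay between -3.94 and -2.45 and Hsph1 between -1.72 and -1.03. Hspa8 A_55_P2080603 fell to -0.48 at D3 with Cy5 alone, from -0.95, and in lung at D2 the 3 Hspa8 probes shrank to -0.26, -0.37 and -0.19 with median centring. Median centring gave 0 called members at D2 and D3 in lung and at D3 in forestomach, 1 at D2 in liver and 3 for vehicle lung against liver, and in the related lists 0 and 0 at D2 and D3 in lung and 2 at D2 in liver. At D3 in forestomach the count of 2 became 1 with Agilent's processed signals and 0 when only the 2 groups were fitted. Slide as a block gave 1 called member in liver at D2 and at D3. The adjusted p alone gave 7 members for vehicle lung against forestomach, and in the related lists 1, 3 and 2 in liver and 11 and 20 at D2 and D3 in lung. The related lists also gave 2 and 3 in liver at D2 and D3 with Agilent's processed signals, 0 in liver at D2 when only the 2 groups were fitted, and 0 in liver at D2 and 1 in forestomach at D3 with Cy5 alone. Cy5 alone also turned Hspa8 A_52_P12877 in vehicle liver minus forestomach from -0.60 to 0.20. The Hspa1a correlation between liver and forestomach turned from 0.29 to -0.02 without mice 1 and 3. The cause of these changes was not tested.

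Leaving out 1 mouse at a time gave 0 to 1 called members in lung at D1 (1 without D0 mouse 5), 4 to 4 at D2 and 6 to 6 at D3. It gave 0 to 0 in liver at D1, 0 to 1 at D2 (1 without D0 mouse 2 or 5) and 0 to 1 at D3 (1 without D0 mouse 2), and in forestomach 0 to 0 at D1 and D2 and 2 to 3 at D3. Vehicle tissues gave 6 to 8 for lung against liver, 3 to 5 for lung against forestomach (5 without mouse 3) and 3 to 9 for liver against forestomach (3 without mouse 3). The related lists gave 0 to 2 in lung at D1, 5 to 8 at D2 and 7 to 10 at D3, and 1 to 2 in liver at D3 (2 without D3 mouse 16). Dose groups held different mice, so only tissues could be paired, and mouse as a replicate block left the vehicle counts at 7, 3 and 6.

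Alternatives chosen after seeing the data were the marker covariates, the array subsets and slide as a block in the relation to Hspa1a. At D3 in forestomach the adipocyte covariate and the arrays low in glandular RNA each gave 0 called members, and the glandular covariate gave 2 and, in the related lists, 1. With slide as a block, the count of members passing in the planned relation to Hspa1a over all forestomach arrays, for which no correlation is printed, went from 4 (where 43.2% of other probes passed) to 0.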
